A study of Mus musculus with 2 samples.

Results

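The genes described here are 10 of the 32285 genes counted in each library, taken by symbol: *Spry1*, *Spry2*, *Spry4*, *Spred1*, *Spred2*, *Il17rd*, *Dusp4*, *Dusp6*, *Etv4* and *Etv5*. They are known as genes that fibroblast growth factor (FGF) signaling switches on through the kinase ERK. Cells were dissociated from E7 mouse embryos pooled by genotype, and each pool was measured in a single 10x Genomics 3' library. The control pool held 4 embryos, which the labels call WT and the design text and single-cell methods describe as heterozygous for the floxed *Yap1* allele with Sox2-Cre, while the mouse methods describe floxed controls without Cre. The *Yap1* cKO pool held 3 embryos with Sox2-Cre and both *Yap1* alleles floxed. Sox2-Cre is active in the epiblast and its derivatives, and the authors regard the extraembryonic tissues as probably heterozygous, so no population here is an unaltered reference. The comparison asks whether the higher *Fgf8* of mutant epiblast came with higher levels of these response genes.

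FGF ligands bind receptor tyrosine kinases, which activate Ras, Raf, MEK and finally ERK. ERK then induces transcription factors that carry the response, and also induces inhibitors that damp the same cascade at several levels. In the gastrulating mouse embryo, FGF signaling is known for its role in the exit of cells from the primitive streak (PS), and *Fgf8* is a main ligand there. RNA levels of the 10 genes are a readout that is often used for the pathway, but ERK activity itself was not measured in these libraries.

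Expression was measured as unique molecular identifiers (UMIs) added up within a population and divided by all UMIs of its cells to give counts per 1000000 (CPM). Filtering left 789 cells of the control, with a median depth of 75678 UMIs, and 862 of the *Yap1* cKO library, with a median depth of 80676. The libraries shared 2 barcodes, and 0 of those kept. With 1 library per genotype no test between genotypes was possible, and each ratio of *Yap1* cKO to control has a 95% interval for counting error alone, which takes no account of variation between embryos or pools. *Yap1* itself was 29.5 CPM in the control against 1.12 CPM in the *Yap1* cKO in epiblast-like cells, and was 24.8 and 18.1 CPM in extraembryonic ectoderm-like cells. The labels give both pools as female, but cells with Y-linked UMIs and no *Xist* made up 51.6% of control and 15.5% of *Yap1* cKO cells, and ratios within Y-bearing and Xist-bearing cells are given beside the pooled ones for epiblast-like and mesodermal populations where they move a result. Each sex group holds the cells of only some embryos of a pool, so sex and embryo cannot be told apart in these ratios.

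Populations were gated on marker genes, and their names end in -like for that reason. The control library held 261 and the *Yap1* cKO library 249 epiblast-like cells, with PS-like cells at 43 and 60, nascent mesoderm-like cells 56 and 68, and lateral and extraembryonic mesoderm-like cells 82 and 72. There were 30 and 34 blood and endothelial progenitor-like cells, 37 and 42 node and axial mesendoderm-like cells, 179 and 102 extraembryonic ectoderm-like cells, 69 and 201 cells like visceral endoderm, and 21 and 24 like its anterior part (AVE). In epiblast-like cells all 5 epiblast markers were detected in both libraries, with a median sum of 1360 CPM in the control against 1215 CPM in the *Yap1* cKO library. The visceral endoderm markers had a median of 0 and 9.31 CPM there, and the extraembryonic ectoderm markers a median of 0 in both. The PS markers were unequal in the same cells, with a median of 20.2 CPM in the control against 33.1 CPM in the *Yap1* cKO and 45.9 against 72.2 CPM over all cells together. The epiblast list was also high in extraembryonic ectoderm-like cells (median 1122 and 1090 CPM), which were gated first by their own markers.

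Gene positions are those of the GENCODE M21 annotation on GRCm38. The Sprouty genes are *Spry1* (ENSMUSG00000037211, chr3:37639947-37644598), *Spry2* (ENSMUSG00000022114, chr14:105891947-105896819) and *Spry4* (ENSMUSG00000024427). The Sprouty-related genes are *Spred1* (ENSMUSG00000027351, chr2:117121374-117182279) and *Spred2* (ENSMUSG00000045671, chr11:19924375-20024026). *Il17rd* (ENSMUSG00000040717) spans chr14:27038941-27107286, so it shares its chromosome with *Spry2*. The phosphatase genes are *Dusp4* (ENSMUSG00000031530, chr8:34807297-34819894) and *Dusp6* (ENSMUSG00000019960, chr10:99263231-99267489). The ETS factor genes are *Etv4* (ENSMUSG00000017724, chr11:101769742-101785371) and *Etv5* (ENSMUSG00000013089, chr16:22381309-22439719). UMIs were assigned to whole genes, and the values do not separate exons or isoforms.

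Promoter windows of 300 bases, from 250 before to 50 after the start of a RefSeq transcript (GRCm38.p6), were matched by symbol for 7 of the 10 members, in 8 windows. The windows below belong to the genes on which the results turn: *Dusp6* (chr10:99262981-99263280, plus strand) and *Etv5* (chr16:22439521-22439820, minus strand), which were higher in *Yap1* cKO lateral mesoderm-like cells, *Il17rd* (chr14:27038751-27039050, plus strand), which went with *Fgf8* in epiblast-like cells, and *Spry1* (chr3:37639697-37639996, plus strand), the only one of the 7 members searched that had a motif match. Capitals mark the match.
Dusp6: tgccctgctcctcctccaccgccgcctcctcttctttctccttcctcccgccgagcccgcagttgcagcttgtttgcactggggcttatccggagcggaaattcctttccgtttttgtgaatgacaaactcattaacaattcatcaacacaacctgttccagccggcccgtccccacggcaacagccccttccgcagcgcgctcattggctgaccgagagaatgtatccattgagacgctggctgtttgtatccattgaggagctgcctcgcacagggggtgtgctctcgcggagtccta
Etv5: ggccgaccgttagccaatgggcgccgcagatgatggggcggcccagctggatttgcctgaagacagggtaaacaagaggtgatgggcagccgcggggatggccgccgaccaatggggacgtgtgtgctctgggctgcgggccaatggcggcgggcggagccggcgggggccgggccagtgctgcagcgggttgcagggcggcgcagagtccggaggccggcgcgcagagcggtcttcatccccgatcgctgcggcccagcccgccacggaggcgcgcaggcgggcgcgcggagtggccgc
Il17rd: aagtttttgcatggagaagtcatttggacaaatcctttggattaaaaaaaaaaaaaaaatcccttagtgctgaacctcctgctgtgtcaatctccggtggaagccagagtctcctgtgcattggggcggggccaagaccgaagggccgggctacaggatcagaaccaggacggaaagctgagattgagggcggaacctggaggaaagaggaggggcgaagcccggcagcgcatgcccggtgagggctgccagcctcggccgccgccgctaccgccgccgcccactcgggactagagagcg
Spry1: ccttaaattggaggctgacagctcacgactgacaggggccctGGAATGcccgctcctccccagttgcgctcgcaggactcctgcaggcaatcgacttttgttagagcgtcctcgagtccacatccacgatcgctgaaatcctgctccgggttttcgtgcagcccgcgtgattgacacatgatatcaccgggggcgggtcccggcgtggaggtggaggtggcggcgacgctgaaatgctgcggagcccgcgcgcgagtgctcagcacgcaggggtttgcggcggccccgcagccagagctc
These motifs were searched on both strands: the ETS motif CCGGAAG, the AP-1 motif TGANTCA, the cyclic AMP response element TGACGTCA and the TEAD motif GGAATG. Of 32851 promoter windows of this length, 8.86% held the first, 7.81% the second, 1.79% the third and 14.7% the fourth. In the members' windows, GGAATG occurred once, in *Spry1*, starting 208 bases before the transcript start. The other motifs matched 0 of the 8 windows, which says only that these letters are not in these windows.

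In control embryos the members differed in where they were high. *Dusp6*, which encodes a cytoplasmic phosphatase that acts on ERK, was highest in nascent mesoderm-like cells (78.7 CPM, 70.6 to 87.5) and node-like cells (72.1 CPM, 62.8 to 82.4), whose intervals overlap. It was lowest in blood-like cells at 8.05 CPM (5.04 to 12.2), which did not differ beyond counting error from lateral mesoderm-like cells at 10.8 CPM (8.31 to 13.7) and AVE-like cells at 11.9 CPM (6.33 to 20.3). *Dusp4*, a nuclear phosphatase of the same family, was highest in visceral endoderm-like cells at 37.6 CPM (32.7 to 43.1) and lowest in extraembryonic ectoderm-like cells at 4.20 CPM (3.28 to 5.29). The pair of phosphatase genes thus peaked in different populations.

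*Spry2* and *Etv5* were highest in the epiblast. *Spry2*, a Sprouty inhibitor of receptor tyrosine kinase signaling, was at 58.4 CPM (55.2 to 61.7) in epiblast-like and 51.0 CPM (43.4 to 59.6) in PS-like cells, and at most 32.2 CPM in each other population. *Etv5*, a PEA3-type ETS transcription factor, was at 71.6 CPM (68.1 to 75.3) in epiblast-like cells, above visceral endoderm-like cells at 60.3 CPM (54.0 to 67.2), and at 10.6 CPM (7.11 to 15.2) in blood-like cells. Its relative *Etv4* was highest in node-like cells at 34.6 CPM (28.2 to 41.9), close to visceral endoderm-like cells at 32.0 CPM (27.4 to 37.1), and lowest in blood-like cells at 6.22 CPM (3.62 to 9.96).

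The other inhibitors had their own patterns. *Spry1* was highest in AVE-like (34.7 CPM, 24.6 to 47.7), visceral endoderm-like (29.6 CPM) and extraembryonic ectoderm-like cells (26.5 CPM), and lowest in blood-like cells at 4.76 CPM (2.53 to 8.13). *Spry4* was highest in node-like cells at 36.9 CPM (30.3 to 44.5) and nascent mesoderm-like cells at 30.8 CPM (25.8 to 36.5), and lowest in lateral mesoderm-like cells at 5.63 CPM (3.902 to 7.87). *Spred1* and *Spred2* are Sprouty-related inhibitors of the step from Ras to Raf. Their highest values were in different populations, but *Spred2* in nascent mesoderm-like cells, at 75.7 CPM (67.7 to 84.3), overlapped its highest value. *Spred1* was highest in nascent mesoderm-like cells at 92.5 CPM (83.7 to 102.0) and lowest in epiblast-like cells at 29.8 CPM (27.5 to 32.2), while *Spred2* was highest in extraembryonic ectoderm-like cells at 86.2 CPM (81.8 to 90.7) and lowest in blood-like cells at 24.1 CPM (18.7 to 30.7). *Il17rd*, also called Sef, a membrane antagonist of FGF signaling, was highest in node-like (90.2 CPM, 79.8 to 101.7) and PS-like cells (84.2 CPM, 74.4 to 95.03), the populations in which *Fgf8* was also highest (401.9 and 413.8 CPM). It was 70.4 CPM (55.5 to 87.97) in AVE-like cells, overlapping both, where *Fgf8* was 81.4 CPM, and in the *Yap1* cKO library its 83.8 CPM in AVE-like cells stood above 58.6 CPM in PS-like cells. *Il17rd* was lowest in extraembryonic ectoderm-like cells at 17.9 CPM (16.0 to 20.04), where 3 *Fgf8* UMIs were found in 179 control cells. Across the other populations its order did not follow *Fgf8*. Control blood-like cells had 39.5 CPM of *Il17rd* at 3.29 CPM of *Fgf8*, and visceral endoderm-like cells 48.3 CPM at 19.6 CPM. Epiblast-like cells had less *Il17rd*, 30.8 CPM, at 65.8 CPM of *Fgf8*. The lowest population did not differ beyond counting error from the next for *Dusp4*, *Spry1*, *Spry4*, *Etv4*, *Etv5*, *Spred1* and *Spred2*, of which *Spred1* was 30.2 CPM in AVE-like cells, but it did for *Il17rd*.

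**Figure D1:**
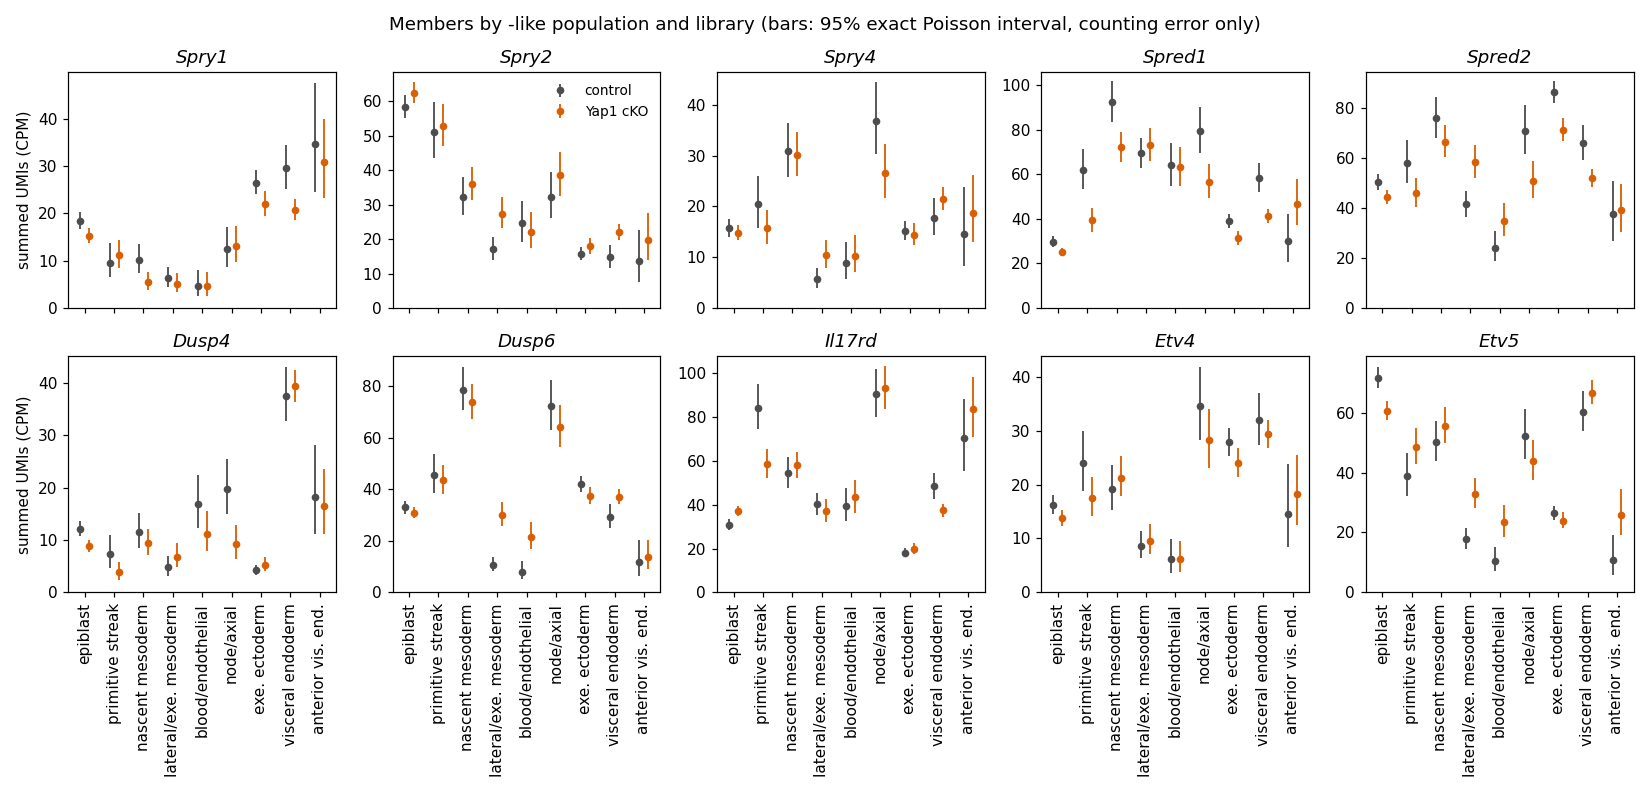
Summed UMIs of each member in CPM (vertical axis, from 0, with its own scale in each panel) in 9 gated populations (horizontal axis), for the control library in grey and the *Yap1* cKO library in orange, with 1 library per genotype and 95% exact Poisson intervals for counting error only. *Dusp6* stands at 78.7 CPM in control nascent mesoderm-like cells and 8.05 CPM in control blood-like cells, and the orange points lie above the grey ones for *Dusp6* and *Etv5* in lateral mesoderm-like and blood-like cells.

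In epiblast-like cells *Fgf8* was 65.8 CPM (62.4 to 69.4) in the control against 160.6 CPM (155.7 to 165.6) in the *Yap1* cKO library, with a ratio of 2.44 (2.29 to 2.59). No response gene came near this ratio. The libraries were not alike here, since clustering put 214 control and 1 *Yap1* cKO cell in one epiblast cluster, 0 and 166 in another, and 40 and 119 in the remaining one. Of the 10 members, 0 were at least 1.5 times higher and 0 at least 1.5 times lower, against 1.38% and 1.99% of the 11421 genes with at least 100 UMIs in these cells. The median ratio of the members was 0.866, against 0.968 for all those genes, with 2 members above 1 and 8 below. The interval lay above 1 for 1 member and below 1 for 6, against 13.8% and 23.0% of the 11421 genes. In each population all 10 members were counted whatever their UMIs, while 10 had at least 100 in epiblast-like, extraembryonic ectoderm-like and visceral endoderm-like cells, 9 in nascent mesoderm-like, 8 in PS-like and node-like, 7 in lateral mesoderm-like, 5 in blood-like and 3 in AVE-like cells. The members summed were 336.3 CPM (328.6 to 344.2) in the control against 313.0 CPM (306.1 to 320.0) in the *Yap1* cKO library, with a ratio of 0.931 (0.901 to 0.961).

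Among the inhibitors at the membrane, *Il17rd* was the single member whose interval lay above 1. It was 30.8 CPM in control against 37.0 CPM in *Yap1* cKO epiblast-like cells, a ratio of 1.2 (1.08 to 1.33), and its ratio was close in Y-bearing (1.21) and Xist-bearing cells (1.23). *Spry2* was 58.4 and 62.4 CPM, a ratio of 1.07 (0.991 to 1.15), which came apart into 1.29 (1.14 to 1.45) in Y-bearing and 0.965 (0.871 to 1.07) in Xist-bearing cells. *Spry4* was 15.7 and 14.8 CPM, a ratio of 0.943 (0.812 to 1.10), with 0.662 (0.497 to 0.874) in Y-bearing and 1.13 (0.922 to 1.40) in Xist-bearing cells. The intervals of *Spry2* and *Spry4* thus lay on opposite sides of 1 in Y-bearing cells, and both included 1 in Xist-bearing cells. *Spry1* went from 18.5 to 15.3 CPM, a ratio of 0.830 (0.719 to 0.957), with 0.636 (0.488 to 0.823) in Y-bearing and 0.981 (0.803 to 1.202) in Xist-bearing cells. *Spred1* went from 29.8 to 25.1 CPM, a ratio of 0.843 (0.753 to 0.943), with 0.747 and 0.838 in the same groups, and *Spred2* from 50.2 to 44.3 CPM, a ratio of 0.882 (0.810 to 0.960), with 0.801 and 0.945. For these 3 genes the interval below 1 was lost when each ratio was divided by the ratio of the same gene in extraembryonic ectoderm-like cells, which gave 1.001 (0.816 to 1.23), 1.05 (0.889 to 1.24) and 1.07 (0.950 to 1.202).

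The phosphatases and the ETS factors were level or lower. *Dusp6* was 33.0 CPM in control against 30.9 CPM in *Yap1* cKO epiblast-like cells, a ratio of 0.936 (0.844 to 1.04), and 1.01 in Xist-bearing against 0.778 in Y-bearing cells. Divided by its own ratio in extraembryonic ectoderm-like cells, *Dusp6* came to 1.05 (0.903 to 1.23). *Dusp4* was 12.1 and 8.83 CPM, the lowest ratio of the members at 0.728 (0.606 to 0.875), with 0.487 (0.323 to 0.717) in Y-bearing and 0.746 (0.593 to 0.941) in Xist-bearing cells. With cells weighted to the control shares of the *Fgf8* classes described below, the *Dusp4* ratio was 1.02 from thinned counts but 0.809 without thinning. *Etv5* was 71.6 and 60.6 CPM, a ratio of 0.846 (0.787 to 0.909), and close to it among Y-bearing (0.838) and Xist-bearing cells (0.846). *Etv4* was 16.2 and 13.7 CPM, a ratio of 0.849 (0.729 to 0.989), with 0.659 (0.490 to 0.878) in Y-bearing and 0.872 (0.715 to 1.07) in Xist-bearing cells. Among epiblast-like cells, Y-bearing ones made up 52.9% in the control against 21.7% in the *Yap1* cKO, and the median ratio of the members was 0.763 among Y-bearing and 0.955 among Xist-bearing cells, while *Fgf8* stood at 2.64 and 2.06. The part of the sex makeup of the pools and of the PS markers in these ratios was not tested.

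**Figure D2:**
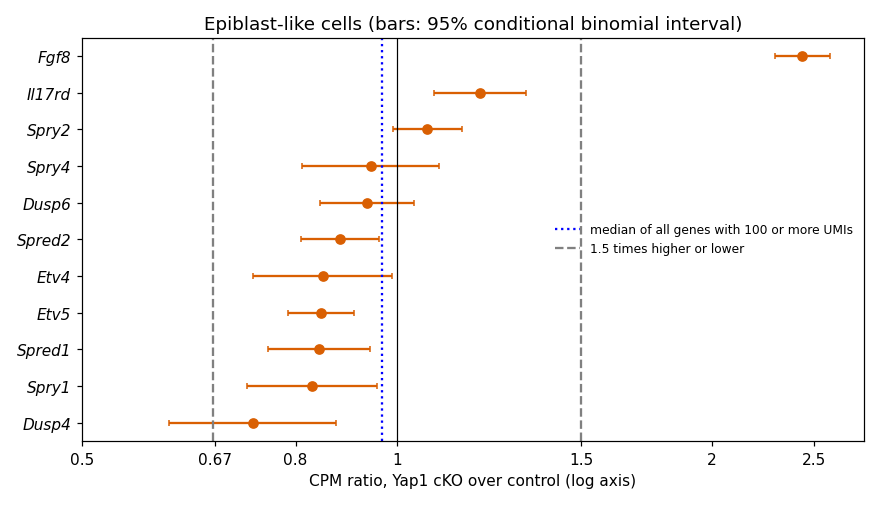
Ratio of CPM in *Yap1* cKO over control epiblast-like cells (horizontal log axis) for the 10 members and *Fgf8*, 1 library per genotype, with 95% conditional binomial intervals for counting error. The dotted line marks the median of all genes with at least 100 UMIs (0.968), and the dashed lines a change of 1.5 times. The members lie between 0.728 and 1.2, inside the dashed lines, and *Fgf8* lies at 2.44.

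The same genes were set beside extraembryonic ectoderm-like cells, a lineage outside the intended reach of Sox2-Cre. *Yap1* itself had a ratio of 0.730 (0.619 to 0.858) in these cells, an interval below 1, and the part of this in the divided ratios was not tested. These cells were themselves not alike in the libraries, since clustering put 158 control and 4 *Yap1* cKO cells in one extraembryonic ectoderm cluster and 21 and 97 in another. The members there had a median ratio of 0.899, and 0 of 10 passed 1.5 times in either direction, against 1.27% of 9866 genes higher and 1.44% lower. *Etv4* was 27.8 and 24.0 CPM there, a ratio of 0.862, and *Spred1* 38.9 and 31.3 CPM, a ratio of 0.804, both close to the epiblast-like values. *Il17rd* was 17.9 and 19.8 CPM there, a ratio of 1.10 (0.931 to 1.31). The epiblast-like ratio divided by the extraembryonic ectoderm-like ratio was 1.05 (0.994 to 1.11) for the members summed. For *Il17rd* it was 1.09 (0.895 to 1.32), so its higher level in epiblast-like cells was not beyond counting error relative to this lineage. The interval excluded 1 for *Dusp4* alone among the members, at 0.576 (0.395 to 0.840), where the extraembryonic ectoderm-like cells held 71 control and 69 *Yap1* cKO UMIs.

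Cells were next compared by their own *Fgf8* UMIs within each library, after each was thinned to 38000 UMIs. This left 257 control and 240 *Yap1* cKO epiblast-like cells, since 4 and 9 were shallower. At least 1 *Fgf8* UMI was found in 51.4% (45.1 to 57.6) of control against 77.1% (71.2 to 82.2) of *Yap1* cKO cells, and before thinning in 65.5% and 85.9%. Extraembryonic ectoderm-like cells had a thinned share of 1.16% (0.141 to 4.14) and 3.09% (0.642 to 8.77), with median depths before thinning of 84348 and 107983 UMIs, and 81.0% of the 105 *Fgf8* UMIs of the *Yap1* cKO library there were in 1 cell. Cells with 3 or more *Fgf8* UMIs were 58 in the control against 113 in the *Yap1* cKO library, cells with 1 to 2 UMIs 74 and 72, and cells with 0 UMIs 125 and 55.

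The summed level of the members was close in the 3 classes. In control cells it was 341.1 CPM (324.6 to 358.1) at 0 *Fgf8* UMIs, 320.1 CPM (299.5 to 341.7) at 1 to 2 and 333.0 CPM (309.4 to 358.0) at 3 or more. In *Yap1* cKO cells it was 324.4 CPM (300.4 to 349.8), 299.0 CPM (278.8 to 320.2) and 336.3 CPM (319.2 to 354.1). The highest class over the class at 0 gave a ratio of 0.976 (0.894 to 1.07) in the control against 1.04 (0.946 to 1.14) in the *Yap1* cKO library. Over 20 further rounds of thinning this ratio ranged from 0.930 to 1.08 and from 0.925 to 1.09, on both sides of 1. Within the highest class, where *Fgf8* was 243.6 and 330.5 CPM, the members summed to nearly the same level in both libraries, a ratio of 1.01 (0.923 to 1.10).

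*Il17rd* stood apart from this sum. In control cells it was 26.1 CPM (21.7 to 31.1) at 0 *Fgf8* UMIs, 29.9 CPM at 1 to 2 and 39.9 CPM (32.0 to 49.2) at 3 or more, and in *Yap1* cKO cells 33.5 CPM (26.1 to 42.3), 27.8 CPM and 49.1 CPM (42.7 to 56.2). The highest class stood above the class at 0 by a factor of 1.53 (1.15 to 2.03) in the control against 1.47 (1.11 to 1.95) in the *Yap1* cKO library, and by 1.34 to 1.84 and 1.28 to 1.90 over the further rounds of thinning. *Spred2* went the other way, from 54.7 to 42.6 CPM in control cells, a ratio of 0.779 (0.609 to 0.990), and from 53.6 to 41.9 CPM in *Yap1* cKO cells, a ratio of 0.782 (0.614 to 0.999). Without thinning its ratios were 0.976 (0.834 to 1.14) and 0.858 (0.736 to 1.002), so the interval below 1 did not hold there, whereas *Il17rd* stood at 1.65 (1.37 to 1.98) and 1.58 (1.31 to 1.90). *Etv4* was 15.6 and 14.97 CPM in control cells at 0 and at 3 or more *Fgf8* UMIs, and 10.05 and 15.6 CPM in *Yap1* cKO cells, with both intervals of the ratio across 1. At least 1.5 times higher in the highest class were 1 of the 10 members in control cells, *Il17rd*, and 1 in *Yap1* cKO cells, *Etv4*, against 1.75% of 6897 and 2.04% of 6572 genes. Those genes had at least 100 UMIs in the class at 0 and the highest class together, within that library after thinning. *Etv4* had 21 and 67 UMIs there in *Yap1* cKO cells, under this minimum. Without thinning its ratio was 1.30 (0.959 to 1.77), beside the 1.58 of *Il17rd*. *Dusp4* was the 1 member at least 1.5 times lower in each, from 14.1 to 9.07 CPM in control and from 13.4 to 8.15 CPM in *Yap1* cKO cells, against 2.17% and 2.27% of genes, with both intervals across 1 (without thinning, ratios of 0.621, 0.431 to 0.880, and 0.674, 0.474 to 0.967). After thinning it had 67 and 20 UMIs in control and 28 and 35 in *Yap1* cKO cells, also under the minimum of 100. *Eomes*, a T-box factor of the PS, was also higher in the highest class, from 95 UMIs (16.2 to 24.4 CPM) at 0 to 115.7 CPM in control and from 24.9 to 105.7 CPM in *Yap1* cKO cells, whereas the pluripotency factor *Pou5f1* went from 92.4 to 85.8 CPM and from 82.3 to 83.6 CPM. Whether the level of *Il17rd* goes with *Fgf8* or with the approach to the PS was not tested.

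Across single epiblast-like cells the rank correlation of *Fgf8* with *Il17rd* was 0.168 over 257 control cells and 0.227 over 240 *Yap1* cKO cells. For the members summed it was -0.04 and 0.02. Over epiblast-like, PS-like and nascent mesoderm-like cells together, which differ in *Fgf8* and in identity, it was 0.177 and 0.083 for the members summed. For *Il17rd* it was 0.351 and 0.309 there. These are descriptions of cells that share a pool and a library, from counts that are mostly low. Within epiblast-like cells the members varied little with one another. The median rank correlation over their 45 pairs was 0.03 in control and 0.04 in *Yap1* cKO cells. The highest values were 0.17 for *Spry2* with *Etv5* and 0.20 for *Spry2* with *Dusp6*.

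**Figure D3:**
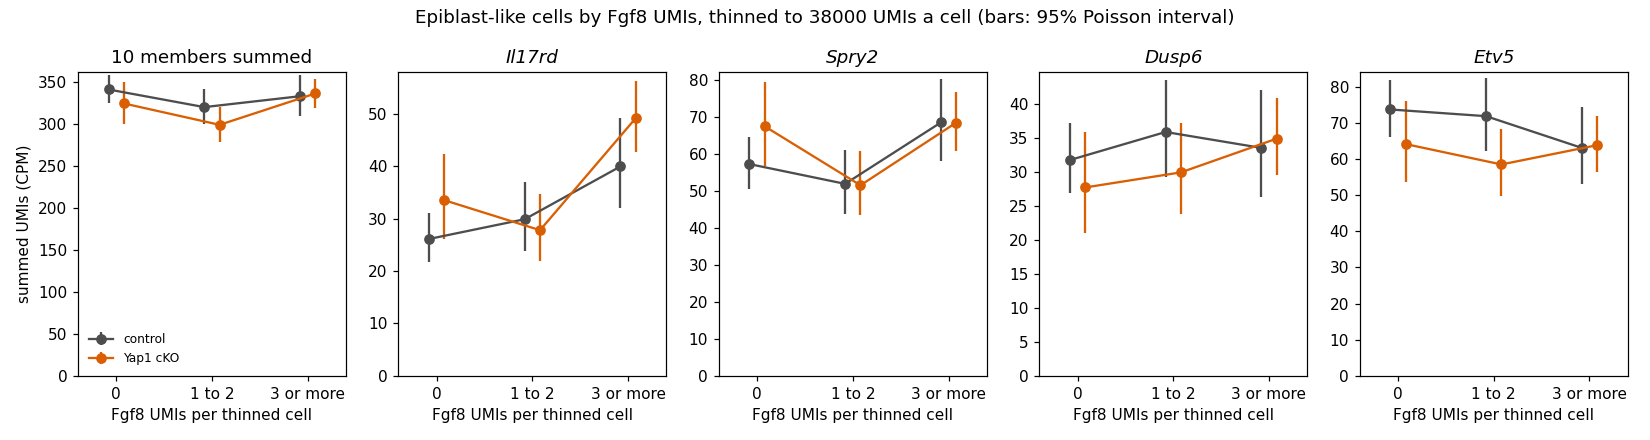
Summed UMIs in CPM (vertical axis, from 0) of the 10 members together and of *Il17rd*, *Spry2*, *Dusp6* and *Etv5* in epiblast-like cells with 0, 1 to 2 and 3 or more *Fgf8* UMIs (horizontal axis), after thinning to 38000 UMIs a cell, with 95% Poisson intervals. The summed members lie between 299.0 and 341.1 CPM in all 3 classes of both libraries, while *Il17rd* is highest at 3 or more *Fgf8* UMIs, with 39.9 CPM in the control against 49.1 CPM in the *Yap1* cKO library.

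In PS-like cells, where *Fgf8* was 413.8 and 527.5 CPM, a ratio of 1.27 (1.19 to 1.36), 7 of the 10 members had a ratio below 1. The interval lay below 1 for 4 of them, against 16.5% of 7520 genes, and above 1 for 1 member, against 8.6%. *Fgf8* itself came apart into 0.882 (0.771 to 1.01) in Y-bearing and 1.34 (1.24 to 1.46) in Xist-bearing cells. The median ratio of the members was 0.780, against 0.956 for all 7520 genes with at least 100 UMIs. Of the 10 members, 0 were at least 1.5 times higher, against 1.05% of all genes, and 2 at least 1.5 times lower, against 3.64%. These were *Spred1*, from 61.9 to 39.4 CPM (ratio 0.637, 0.522 to 0.777), and *Dusp4*, from 23 to 21 UMIs (ratio 0.522, 0.275 to 0.987). *Il17rd* went from 84.2 to 58.6 CPM, a ratio of 0.696 (0.589 to 0.822), opposite to its direction in the epiblast, with 0.429 (0.305 to 0.598) in Y-bearing and 0.865 (0.700 to 1.07) in Xist-bearing cells. *Etv5* had 38.9 and 48.6 CPM there and a ratio of 1.247 (1.003 to 1.56). Only 7 *Yap1* cKO PS-like cells were Y-bearing. Over all PS-like cells together, the anterior endoderm markers were 242.8 CPM in the control against 128.5 CPM in the *Yap1* cKO library (medians of 12.5 and 15.3 CPM), the node markers 24.9 and 17.3 CPM (15.4 and 0), and the PS markers 513.4 and 396.7 CPM (450.4 and 390.5). Their part in these ratios was not tested.

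In node-like cells 51.4% of control but 4.76% of *Yap1* cKO cells were Y-bearing, and the part of sex makeup in the ratios there was not tested. The members had a median ratio of 0.826, with 0 of 10 at least 1.5 times higher, against 1.34% of 7001 genes, and 1 at least 1.5 times lower, against 4.89%. That member was *Dusp4*, from 19.8 to 9.23 CPM (59 and 35 UMIs), a ratio of 0.466 (0.298 to 0.720). *Spry4* went from 36.9 to 26.6 CPM, a ratio of 0.722 (0.545 to 0.954), *Spred1* from 79.5 to 56.7 CPM, a ratio of 0.713 (0.590 to 0.861), and *Spred2* from 70.8 to 50.9 CPM, a ratio of 0.719 (0.588 to 0.878). *Il17rd* stayed close, at 90.2 and 93.1 CPM, while *Fgf8* was 401.9 and 494.3 CPM, a ratio of 1.23 (1.14 to 1.32). The anterior endoderm markers had a median of 240.2 CPM in control against 35.6 CPM in *Yap1* cKO node-like cells, and the part of this in the ratios was not tested.

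In nascent mesoderm-like cells *Fgf8* was 268.3 and 411.7 CPM, a ratio of 1.53 (1.43 to 1.65), with 1.06 (0.884 to 1.27) in Y-bearing cells, of which there were 26 and 3, and 2.25 (2.03 to 2.49) in Xist-bearing cells. The members had a median ratio of 0.956, with 0 of 10 at least 1.5 times higher (1.40% of 8020 genes) and 1 at least 1.5 times lower (1.78%). This was *Spry1*, with 44 and 34 UMIs and a ratio of 0.534 (0.331 to 0.855). *Dusp6*, at its peak in these cells, was 78.7 and 73.8 CPM, a ratio of 0.938 (0.814 to 1.08), and *Spry4* was 30.8 and 30.1 CPM.

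The lateral and extraembryonic mesoderm-like cells differed from the populations above. Of the 10 members, 4 were at least 1.5 times higher in the *Yap1* cKO library, against 2.30% of 8441 genes, and 0 at least 1.5 times lower, against 2.94%. The median ratio of the members was 1.41, against 0.998 for all genes. The count was not stable: with cells grouped by clustering 3 members passed 1.5 times, 1 of them among those 4, and with cells weighted equally or gate thresholds doubled 2 members did, *Dusp6* and *Etv5* each time. *Dusp6* was 10.8 CPM (8.31 to 13.7) in the control against 30.1 CPM (25.7 to 35.1) in the *Yap1* cKO, a ratio of 2.80 (2.08 to 3.79). *Etv5* was 17.7 and 32.9 CPM, a ratio of 1.85 (1.45 to 2.38). *Spry4* was 5.63 and 10.3 CPM, from 34 and 56 UMIs and so under the 100 UMIs asked of the genes behind that percentage, a ratio of 1.84 (1.18 to 2.90), and *Spry2* was 17.1 and 27.3 CPM, a ratio of 1.60 (1.24 to 2.08).

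These 4 genes, listed because they passed 1.5 times, encode a phosphatase, an ETS factor and Sprouty inhibitors. Their relatives *Dusp4*, *Etv4* and *Spry1* did not pass it. *Spred2* was 41.4 and 58.2 CPM, a ratio of 1.40 (1.19 to 1.67). *Etv4*, *Spred1*, *Dusp4*, *Il17rd* and *Spry1* had intervals across 1, with ratios of 1.11, 1.05, 1.42, 0.926 and 0.822. *Fgf8* in the same cells was 70.8 and 107.9 CPM, a ratio of 1.52 (1.34 to 1.73), with 25.3% of the control UMIs in 1 cell. Thinned to one depth, *Dusp6* was found in 27.5% (18.1 to 38.6) of control against 46.3% (34.0 to 58.9) of *Yap1* cKO cells, and before thinning in 45.1% and 56.9%.

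The gated cells differed in their markers between the libraries. The nascent mesoderm markers had a median of 406.9 CPM in control against 839.0 CPM in *Yap1* cKO cells, and the lateral mesoderm markers 756.6 and 476.3 CPM. Among cells with at least 200 CPM of the nascent list, 52 control and 54 *Yap1* cKO cells, *Dusp6* was 13.2 and 34.8 CPM, a ratio of 2.63 (1.90 to 3.69), and *Etv5* 24.1 and 37.4 CPM, a ratio of 1.55 (1.19 to 2.02). Among the 30 and 18 cells under 200 CPM, *Dusp6* was 6.41 and 12.9 CPM, a ratio of 2.02 (0.907 to 4.51), from 14 and 15 UMIs, and *Etv5* was 6.41 and 16.4 CPM, a ratio of 2.55 (1.21 to 5.50). *Fgf8* had a ratio of 1.17 (1.03 to 1.34) in the first of these groups and 4.33 (2.78 to 6.88), from 30 and 69 UMIs, in the second. Lateral markers were also unequal within the first group (medians of 428.2 and 288.7 CPM) and close in the second (1101 and 1153 CPM).

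*Dusp6* and *Etv5* were higher in both sex groups, with ratios of 3.78 (2.53 to 5.67) and 1.73 (1.13 to 2.60) in Y-bearing and 3.41 (1.91 to 6.61) and 2.09 (1.38 to 3.26) in Xist-bearing cells. *Fgf8* had ratios of 1.84 (1.46 to 2.31) and 1.09 (0.914 to 1.31) in the same groups, and *Spry2* 1.29 (0.801 to 2.03) and 2.67 (1.64 to 4.59). The values depended on how the population was drawn. In a cluster of 80 cells named by the same markers, 69 of them among the 154 gated cells, *Etv5* had a ratio of 2.36, but *Dusp6* one of 1.42, *Spry4* one of 1.08 and *Spry2* one of 0.581, below 1. The part of cell stage, or of the mix of cells within the gate, in these ratios was not tested.

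**Figure D4:**
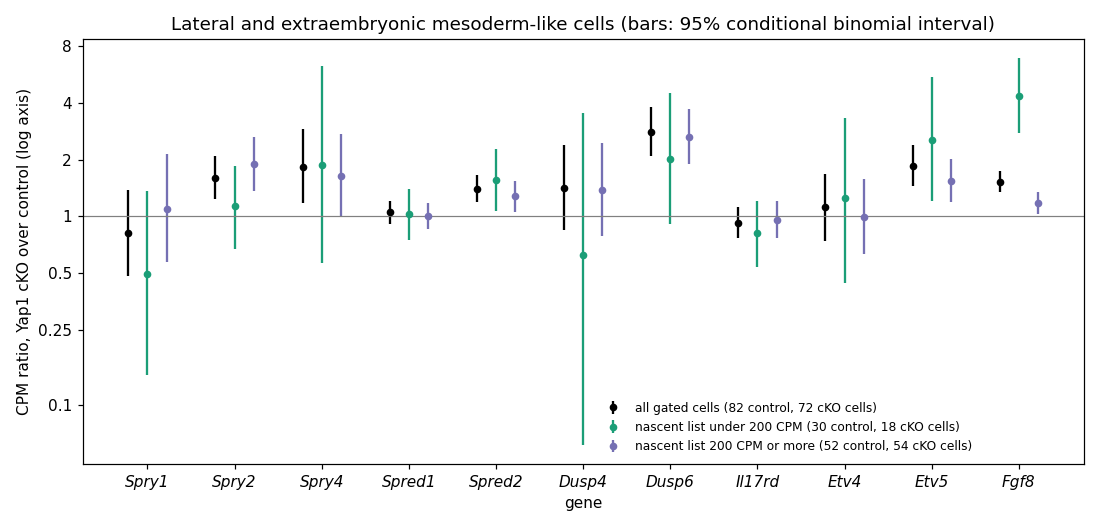
Ratio of CPM in *Yap1* cKO over control for the 10 members and *Fgf8* (horizontal axis) on a vertical log axis, in all 82 control and 72 *Yap1* cKO lateral and extraembryonic mesoderm-like cells (black) and in those with the nascent mesoderm list under 200 CPM (green) or at 200 CPM or more (purple), with 95% conditional binomial intervals. *Dusp6* lies at 2.80, 2.02 and 2.63 and *Etv5* at 1.85, 2.55 and 1.55, while *Il17rd* and *Spred1* lie near 1 in each.

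Blood and endothelial progenitor-like cells had the same leading genes. Here *Dusp6* was 8.05 CPM (22 UMIs) in the control against 21.5 CPM (69 UMIs) in the *Yap1* cKO library, with a ratio of 2.67 (1.63 to 4.53), and *Etv5* was 10.6 and 23.4 CPM, a ratio of 2.20 (1.42 to 3.51). *Dusp6* and *Etv5* were the 2 of 10 members at least 1.5 times higher, against 4.20% of 6430 genes, while *Dusp4*, from 46 to 36 UMIs, was the 1 member at least 1.5 times lower, against 2.49%. The median ratio of the members was 1.05, against 0.999 for all genes. The higher *Dusp6* did not hold in both sex groups: its ratio was 0.980 (0.510 to 1.92) in Xist-bearing cells, and in Y-bearing cells it had 3 control and 32 *Yap1* cKO UMIs, a ratio of 12.2 (3.80 to 62.0). The ratio of *Etv5* was 2.61 (1.35 to 5.28) in Y-bearing and 1.63 (0.841 to 3.31) in Xist-bearing cells. *Fgf8* had 9 and 64 UMIs, 65.6% of the latter in 1 cell. The lateral mesoderm markers had a median of 93.02 CPM in control against 295.3 CPM in *Yap1* cKO cells, and the nascent markers 20.7 and 57.4 CPM, and their part was not tested.

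In visceral endoderm-like cells the members were divided. Clustering put 47 control and 0 *Yap1* cKO cells in one visceral endoderm cluster and 29 and 196 in another. *Fgf8* went from 19.6 to 8.14 CPM in these cells, a ratio of 0.415 (0.320 to 0.539), with 32.4% of the control UMIs in 1 cell. The median ratio of the members was 0.982, with 0 of 10 past 1.5 times, against 2.09% of 9491 genes higher and 1.82% lower. *Spry2* was 14.7 and 21.95 CPM, a ratio of 1.49 (1.17 to 1.92), and *Dusp6* 29.4 and 37.0 CPM, a ratio of 1.26 (1.05 to 1.503). *Spry1* went from 29.6 to 20.7 CPM, a ratio of 0.701, *Spred1* from 58.3 to 41.1 CPM, a ratio of 0.705, *Il17rd* from 48.3 to 37.4 CPM, a ratio of 0.775, and *Spred2* from 65.8 to 51.7 CPM, a ratio of 0.787, each with an interval below 1. The share of all genes with such intervals was not counted in these cells. In AVE-like cells 2 of 10 members were at least 1.5 times higher, against 2.41% of 4694 genes, and 0 at least 1.5 times lower, against 2.26%. *Etv5* had 12 and 47 UMIs there, a ratio of 2.36 (1.23 to 4.89), and *Spred1* had 33 and 85 UMIs, a ratio of 1.55 (1.03 to 2.397). The nascent mesoderm markers summed over these cells were 11.0 CPM in the control against 112.96 CPM in the *Yap1* cKO library, with a median of 0 in both, and their part was not tested. *Yap1* in AVE-like cells was 39.3 and 12.1 CPM, from 43 and 22 UMIs, a ratio of 0.308 (0.176 to 0.527). In visceral endoderm-like cells its ratio was 0.919 (0.768 to 1.11). Whether recombined cells of epiblast origin passed the AVE gate was not tested.

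**Figure D5:**
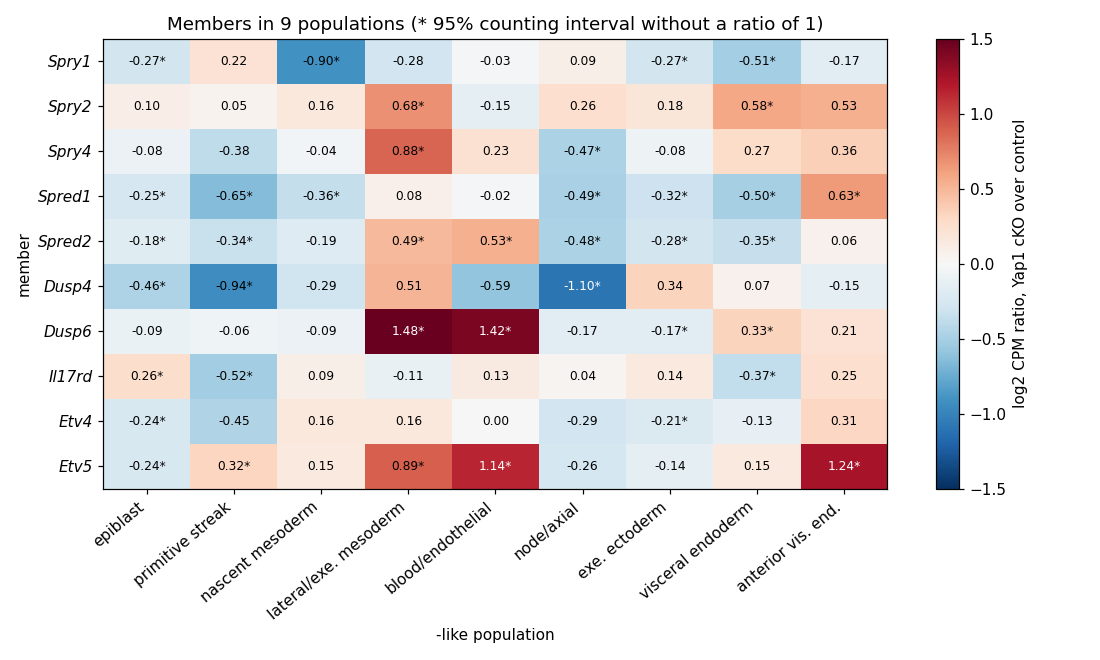
Log2 ratio of CPM, *Yap1* cKO over control, for each member (rows) in 9 populations (columns), where red is higher and blue lower in the *Yap1* cKO library and an asterisk marks a 95% counting interval without a ratio of 1. The highest values are *Dusp6* at 1.48 in lateral mesoderm-like and 1.42 in blood-like cells, and the lowest is *Dusp4* at -1.10 in node-like cells.

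The rest of the pathway was described in epiblast-like cells by lists of ligands and receptors, of the cascade, and of other induced genes. Of 11 FGF ligands and receptors, 7 had at least 100 UMIs, 2 with an interval above 1 and 4 below, beside 13.8% and 23.0% of all genes. *Fgf17*, a ligand close to *Fgf8*, was 2.88 and 4.72 CPM, a ratio of 1.64 (1.19 to 2.27), while *Fgf4*, a ligand of the early epiblast, was 4.72 and 2.88 CPM, a ratio of 0.610 (0.444 to 0.834). The receptor gene *Fgfr1* went from 49.0 to 37.2 CPM, a ratio of 0.758 (0.693 to 0.829). The ligand gene *Fgf8* and the receptor gene *Fgfr1* thus had opposite directions. The ligand gene with the most UMIs in control cells, *Fgf5*, was lower, at 146.1 and 125.8 CPM, a ratio of 0.861 (0.819 to 0.905). *Fgfr2*, the receptor gene with the most UMIs, had a ratio of 0.867 (0.806 to 0.934).

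Of 19 genes of the cascade, 18 had at least 100 UMIs, with a median ratio of 0.977, 1 interval above 1, 6 below (same shares of all genes), and 0 past 1.5 times in either direction. *Map2k2*, which encodes a MEK kinase, was 137.0 and 153.4 CPM, a ratio of 1.12 (1.07 to 1.18), and *Gab1*, a docking protein gene, had the lowest ratio of the list at 0.817 (0.642 to 1.04), from 6.75 and 5.52 CPM, followed by the adaptor gene *Shc1* at 17.7 and 14.6 CPM, a ratio of 0.829 (0.716 to 0.960). Of 18 other ERK-induced genes, 14 had at least 100 UMIs, with a median ratio of 0.982, 2 intervals above 1 and 3 below, beside the same 13.8% and 23.0%. The immediate early gene *Egr1* went from 9.25 to 4.72 CPM, a ratio of 0.510 (0.402 to 0.644), and the phosphatase gene *Dusp5* from 3.87 to 6.91 CPM, a ratio of 1.79 (1.37 to 2.35). These were the single genes of that list past 1.5 times in each direction, beside the 1.99% and 1.38% of all genes.

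The genes most like the mean of the members were ranked by Pearson correlation of log2(CPM + 1) over 18 points, the 9 populations in both libraries, among 14294 genes. The points share libraries and the members' own level, and the correlation is a description. The highest were *Prob1* (0.873), the receptor tyrosine kinase gene *Epha2* (0.852), the secreted peptide gene *Apln* (0.846), *Lrig3* (0.844) and *Ntn1* (0.810). Among the members, *Spry4* (0.933) and *Etv4* (0.845) were closest to their mean and *Spred1* (0.133) was farthest.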

How the data were processed

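Single-cell RNA of E7 embryos was measured in 1 pooled 10x Genomics 3' library per genotype. The authors ran Cell Ranger 7.1.0 on mm10, and the deposited values are raw UMI counts per gene and barcode, here 1829 control and 1897 *Yap1* cKO barcodes with 70573418 and 87937858 UMIs. Barcodes with at least 5000 genes (791 and 864) and at most 10% mitochondrial UMIs were kept, and scrublet in scanpy 1.11.5 removed 2 in each library as doublets. Under 0.5% of barcodes were called, on fewer than 5000 barcodes. SoupX was not repeated, so free RNA remains in the values.

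Cells were gated by summed CPM of marker lists in a fixed order, with thresholds read from the marker distributions: extraembryonic ectoderm 100, visceral endoderm 200 and its anterior part 200, then, below 100 and 60 CPM of visceral endoderm and extraembryonic ectoderm markers, node 100, blood 200, lateral mesoderm 100, nascent mesoderm 200, PS (*T* and *Mixl1*) 20 and epiblast 200. This left 11 control and 10 *Yap1* cKO cells unassigned. A gene's UMIs were summed per population and library. Intervals at 95% are exact: Poisson for CPM, conditional binomial for ratios and Clopper-Pearson for shares. The exception is a ratio divided by the extraembryonic ectoderm-like ratio, whose interval is a normal approximation on the log scale. The share of all genes with an interval above or below 1 was counted only in epiblast-like and PS-like cells. In the other populations the members' intervals have no such share beside them. No test was made between the genotypes. Outside the members, genes past 1.5 times were counted among those with at least 100 UMIs over both libraries, while the 10 members were counted whatever their UMIs. Genes with few UMIs passed more often. In epiblast-like cells 4.20% of genes with at least 20 UMIs were at least 1.5 times higher, against 1.38% of those with at least 100. Cells were thinned without replacement to 38000 UMIs for shares and *Fgf8* classes, which left out 26 and 48 cells. Y-bearing cells had at least 2 Y-linked UMIs and no *Xist*, Xist-bearing cells the reverse.

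The members and lists were chosen with earlier results of these data known, and their counts are not independent support for patterns already seen. All 10 members, *Fgf8* and *Yap1* are named, with up to 4 genes a list, the extremes of the ratio in epiblast-like cells where a gene had at least 100 UMIs, and the 5 genes most like the members. *Eomes* and *Pou5f1* were added as identity genes, and *Fgf5* and *Fgfr2* as the ligand and receptor genes with the most UMIs in control epiblast-like cells. The alternatives were other gene minimums, a mitochondrial limit of 5%, doublets kept, 3 other scalings, cells weighted equally, doubled gate thresholds, Leiden clusters, Y-bearing or Xist-bearing cells alone, other folds and UMI minimums, and no thinning. The split of lateral mesoderm-like cells, the weighting by *Fgf8* class and the 20 further rounds of thinning were added after the data were seen. The ratios, their intervals and the thinning were tested on simulated Poisson counts. These hold counting error only, as the intervals assume, and the gates and *Fgf8* classes were not simulated. Versions were Python 3.11.15, numpy 2.4.6, scipy 1.17.1 and pandas 2.3.3.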

Additional observations from a re-analysis of the deposited data

Results flagged for a closer look

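The following members had counting intervals above 1 in one population and below 1 in another, and none of these differences between populations was tested. The share of all genes that meet this rule was not counted. In epiblast-like cells alone 13.8% of genes had an interval above 1 and 23.0% below, so the list does not set the members apart from other genes. *Spry4* had a ratio of 1.84 in lateral and extraembryonic mesoderm-like cells, from 34 and 56 UMIs, and 0.722 in node-like cells. *Spred1* had a ratio of 1.55 in AVE-like cells, from 33 and 85 UMIs, and 0.637 in PS-like cells. *Spred2* had a ratio of 1.44 in blood-like cells and 0.719 in node-like cells. *Dusp6* had a ratio of 2.80 in lateral and extraembryonic mesoderm-like cells and 0.889 in extraembryonic ectoderm-like cells, where the interval (0.791 to 0.9995) ended just below 1. *Etv5* had a ratio of 2.36 in AVE-like cells, from 12 and 47 UMIs, and 0.846 in epiblast-like cells. *Il17rd* had a ratio of 1.2 in epiblast-like cells and 0.696 in PS-like cells.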

How the results depend on the processing

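In epiblast-like cells 0 members were counted as higher under each of 14 alternatives, not all of which used a fold of 1.5. A smaller fold also gave 0, while a larger fold could only repeat the 0 and adds no check. The median ratio of the members stayed below 1 under 13 alternatives, from 0.763 in Y-bearing cells to 0.998 after division by the extraembryonic ectoderm-like ratio. It was 0.955 in Xist-bearing cells, 0.895 with the median gene set to a ratio of 1, 0.916 with cells weighted equally and 0.928 with thinned cells weighted to the control shares of the *Fgf8* classes. The *Fgf8* ratio was 2.64 among Y-bearing cells, 2.06 among Xist-bearing cells and 3.53 with Leiden clusters, of which the largest epiblast clusters held 214 control and 1 *Yap1* cKO cell, and 0 and 166. It was not divided by the extraembryonic ectoderm-like ratio, where the control had 3 UMIs. Division took *Spry1* to 1.001, *Spred1* to 1.05 and *Spred2* to 1.07, each with an interval across 1. Weighting by class took *Dusp4* to 1.02 from thinned counts, but to 0.809 without thinning. In lateral mesoderm-like cells the median was 1.21 in Y-bearing cells, 1.251 with Leiden clusters, where *Spry2* turned to 0.581, and 1.19 with the nascent list under 200 CPM. The 4 members at least 1.5 times higher there became 2 with cells weighted equally and 2 with gate thresholds doubled. The cause was not tested. The summed members in the highest *Fgf8* class over the class at 0 lay between 0.903 and 1.02 in the control and 1.02 and 1.13 in the *Yap1* cKO library. These alternatives reused the same thinning of each cell. Further rounds of thinning alone gave 0.930 to 1.08 and 0.925 to 1.09, on both sides of 1 in each library. Depth limits genes with few UMIs, such as *Dusp4* in PS-like cells. No paired analysis was possible because each genotype had 1 library and no result came from a test.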
